A study of Mus musculus with 4 samples.

Results

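The ligands and receptors of axon guidance were examined in RNA-Seq data from primary mouse oligodendroglial cells (1° OGCs) with and without a deletion of Zfp276. Members were taken by gene symbol: class 3 to 7 semaphorins, plexins, neuropilins, ephrins, Eph receptors, Slits, Robos, netrins, netrin-G proteins, the Unc5 receptors and Dcc. Of 53465 genes in the count files, 70 matched. They comprised 20 semaphorins, 11 plexins and neuropilins, 8 ephrins, 14 Eph receptors, 7 Slits and Robos, and 10 netrins and netrin receptors. The rule used symbols and no measured level.

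All cells came from forebrain of mice at postnatal day 2 to 4 and were analysed after 3 days of differentiation in culture, during which CNTF took the place of the mitogens. The 2 ctrl libraries were from Zfp276 flox/flox mice, whose floxed exons were not recombined. The 2 Zfp276cko libraries were from Sox10::Cre tg; Zfp276 flox/flox mice, in which a Cre under control of Sox10 elements is meant to delete the floxed exons in cells of the oligodendroglial lineage. The deletion is incomplete per the study, and recombination in single cell types of these cultures was not measured here. Each library was made from a preparation of 3 mice. In the mice used for culture a Rosa26 allele with a floxed stop cassette before tdTomato had been crossed in, the background was mixed C3H x C57Bl/6J, and both sexes were used. The ctrl libraries carried no Cre, so that effects of the Sox10::Cre transgene and of the Zfp276 deletion cannot be told apart.

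As background, axon guidance cues are secreted or membrane-bound proteins that attract or repel growing axons and migrating cells through receptors on their surface. Semaphorins signal through plexins, with neuropilins as co-receptors for most class 3 semaphorins. Ephrins signal through Eph receptor tyrosine kinases and can signal back into the cell that carries them, Slits signal through Robos, and netrins through Dcc and Unc5 receptors. Oligodendrocytes and their precursors use these systems in migration and process extension, and several of the ligands on myelin inhibit axon growth.

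The libraries held 21068322 to 26599809 counted reads. Zfp276 was at 1648 and 2230 normalized counts in the ctrl libraries, against 490 and 503 after deletion (25.6% of ctrl), whereas Sox10, the pan-oligodendroglial factor, was at 18135 and 20744 against 17805 and 18611. The count of Zfp276 includes reads from exons that the deletion leaves in place. Normalized counts are read counts scaled to a common library size. The ctrl libraries were far apart, with a biological coefficient of variation of 0.351 against 0.0480 between the Zfp276cko libraries. Among cell type markers, the summed level of 13 oligodendrocyte genes ranged from 403010 to 530799 in ctrl and from 268719 to 277264 in Zfp276cko, with 12 of the 13 genes below the ctrl range. The sum of 6 precursor genes was 129657 to 175889 in ctrl and 94859 to 96741 in Zfp276cko, with 4 of the 6 genes below the ctrl range. Gpr17 gave the largest part of this sum, at 113405 and 69766 in ctrl and 43296 and 41092 in Zfp276cko. Pdgfra (10049 and 15501 in ctrl, 11842 and 11561 in Zfp276cko) and Lhfpl3 overlapped the ctrl range. The sum of 10 interferon response genes was 3060 to 7032 in ctrl and 65048 to 67357 in Zfp276cko, and all 10 lay above the ctrl range. Lists for astrocytes (21410 to 31963 in ctrl, 24397 to 25744 in Zfp276cko) and microglia (27996 to 52889 and 37970 to 39508) overlapped between the genotypes. In bulk RNA, fewer cells of a type and less RNA per cell cannot be told apart. The part of these differences in the results on guidance genes was not tested, except where values without a ctrl library are given.

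Of the 70 members, 65 passed the filter on low counts and were tested, and 61 of them had a mean of at least 20 normalized counts. Epha6, Epha8, Ntn5, Robo3 and Robo4 were not tested, and none of them had more than 8 reads in any library. Epha1, Epha10, Efna5 and Ntng1 were tested at a mean under 20. All 20 semaphorins and all 11 plexins and neuropilins reached this mean, beside 7 of 8 ephrins, 10 of 14 Eph receptors, 5 of 7 Slits and Robos, and 8 of 10 netrins and netrin receptors.

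Plexins and semaphorins gave most of the guidance transcripts. On a scale per transcript length (TPM, counts per transcript length scaled to the same total in every library), which allows genes to be compared with each other, the 70 members summed to 1730 and 2064 TPM in ctrl and to 1886 and 1732 TPM in Zfp276cko cells. Plexins and neuropilins contributed 761 and 900 TPM in ctrl and 961 and 847 TPM in Zfp276cko. Semaphorins contributed 669 and 713 TPM in ctrl and 555 and 526 TPM in Zfp276cko, so that their sum was lower in both Zfp276cko libraries. Netrins and their receptors summed to 121 to 138 TPM, Eph receptors to 91.2 to 165 TPM, ephrins to 72.9 to 130 TPM, and Slits and Robos to 13.8 to 26.6 TPM over the 4 libraries.

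Plxnb3, a plexin found in oligodendrocytes that binds Sema5a, had the highest level of all members, with 342 and 506 TPM in ctrl and 387 and 323 TPM in Zfp276cko. It was followed in ctrl by Sema6a at 122 ± 57.4 TPM, Plxnb2 at 120 ± 13.2 TPM and Sema3d at 112 ± 72.3 TPM (mean ± SD, n = 2). These 3 levels differed by less than the spread between the ctrl libraries. Sema4d, a ligand of Plxnb1 known from myelin, was next at 94.9 ± 2.93 TPM, and Plxnb1 itself was at 75.8 ± 4.38 TPM. Sema5a, at 73.0 ± 5.31 TPM, and Sema5b, at 65.2 ± 17.4 TPM, did not differ from Plxnb1 beyond their spread. In the remaining classes the leading members were Ephb1 (55.8 ± 26.8 TPM) and Ephb2 (20.2 ± 1.75 TPM) among the Eph receptors, Efnb3 (40.2 ± 5.51 TPM) and Efnb2 (20.2 ± 23.8 TPM) among the ephrins, Ntn1 (47.7 ± 5.43 TPM) and Unc5c (27.7 ± 0.521 TPM) among netrins and their receptors, and Slit1 (8.46 ± 0.940 TPM) and Robo2 (5.81 ± 5.68 TPM) among Slits and Robos. These levels depend on the gene length used. With the longest annotated transcript in place of the union of exons, the leading member was the same in 3 of 6 classes, Unc5c came to 42.4 TPM and Ntn1 to 39.4 TPM.

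**Figure D1:**
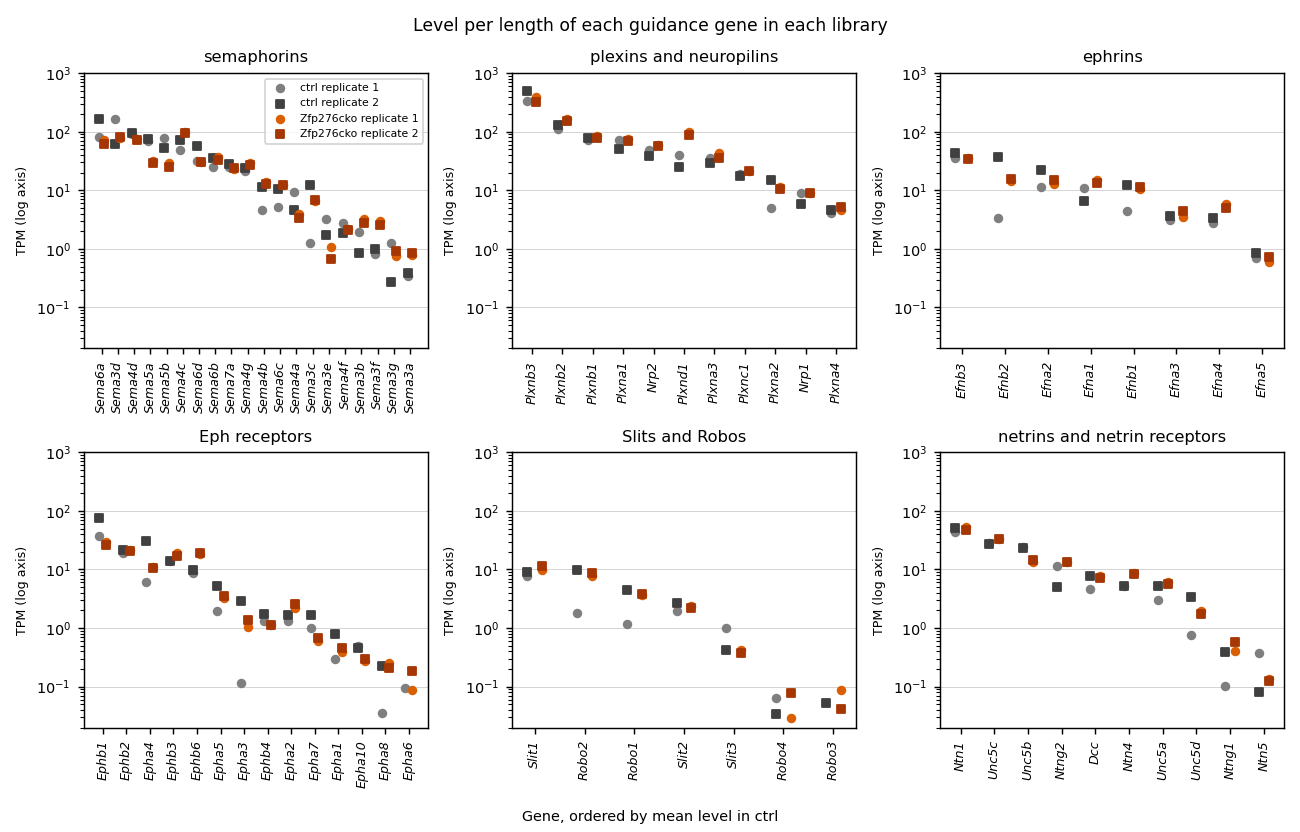
Level of each guidance gene in TPM (vertical log axis) in 6 panels, 1 per class, with genes ordered by their ctrl mean; grey points are the 2 ctrl libraries, orange points the 2 Zfp276cko libraries, and values of 0 are not drawn. Plxnb3 is highest at 323 to 506 TPM, and the grey points of Epha3, Efnb2, Sema3c and Robo2 lie far apart while the orange ones lie close together.

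The genotypes were compared gene by gene in a fit across all 15766 tested genes, and a call required an adjusted p no higher than 0.05, a log2 fold change of 0.6 or more in size and 20 or more normalized counts on average. By edgeR's quasi-likelihood test 0 of the 65 tested members passed, beside 0% of all tested genes. Zfp276, the deleted gene, did not pass this test either (adjusted p = 0.0962), so that the absence of calls does not show that guidance genes were unchanged. The smallest adjusted p of a member was 0.0962, for Sema5a, and that of any gene 0.0725. With an unadjusted p of at most 0.05 in place of the adjusted one, 8 members (12.3%) were lower in Zfp276cko, beside 3.02% of all tested genes, and 4 (6.15%) were higher, beside 5.11%. DESeq2 at the same thresholds called 6 members lower (9.23%), beside 2.21% of all genes, and 3 higher (4.62%), beside 2.92%. The calls turned on the ctrl libraries: without ctrl replicate 1 edgeR called 23 members (15 lower and 8 higher), beside 16% of all genes, and without ctrl replicate 2 it called 25 (9 lower and 16 higher), beside 18.6%. In these fits the remaining ctrl library was assumed to vary like the Zfp276cko libraries.

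By position alone, the 2 Zfp276cko values were both lower than either ctrl value in 16 of 61 members (26.2%), beside 24.8% of all genes with a mean of at least 20, and both higher in 18 (29.5%), beside 26.3%. Both shares were close to those of all genes. When counts were scaled by the raw library total, 13 members lay below and 21 above, beside 15.4% and 35.9% of all genes. The median log2 fold change of the 65 tested members was 0.018, beside −0.0013 for all tested genes. By class it was −0.42 for Eph receptors, −0.17 for semaphorins, −0.12 for ephrins, 0.08 for plexins and neuropilins, 0.14 for netrins and their receptors, and 0.20 for Slits and Robos. Except for netrins and their receptors (0.12 to 0.41 with any library left out), the sign changed with 1 ctrl library left out. For ephrins it also changed without Zfp276cko replicate 1 (0.036). Without ctrl replicate 2 the median was 0.22 for Eph receptors, 0.13 for ephrins and −0.049 for plexins and neuropilins, and without ctrl replicate 1 it was 0.024 for semaphorins and −0.28 for Slits and Robos. In every class members lay on either side of 0.

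**Figure D2:**
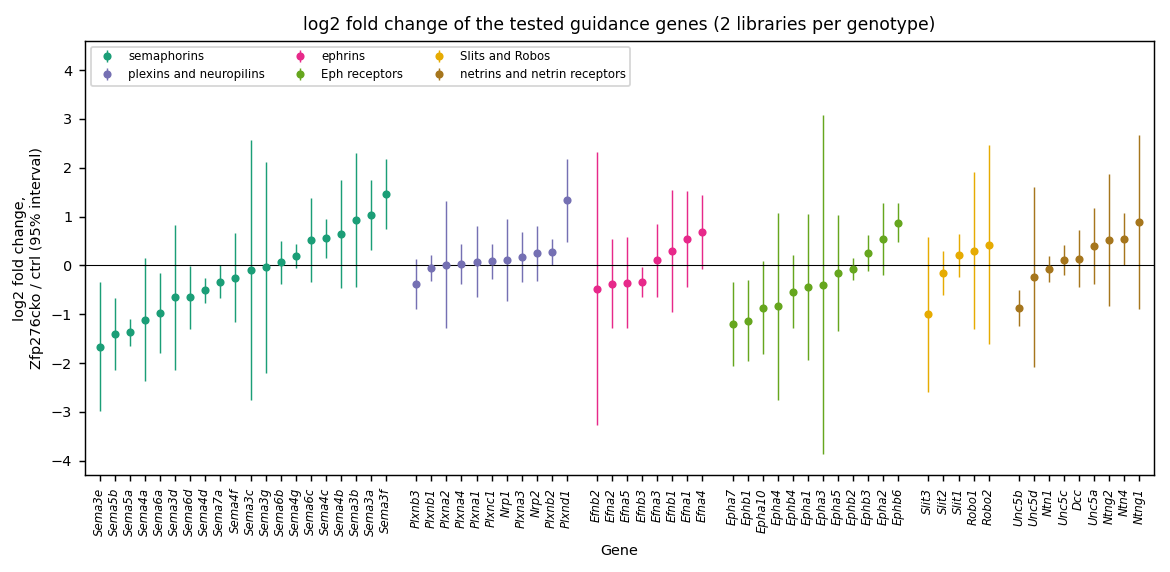
log2 fold change of Zfp276cko over ctrl for the 65 tested guidance genes (vertical axis, with 95% intervals from the quasi-likelihood test, 2 libraries per genotype), grouped and coloured by class. Values range from −1.67 for Sema3e to 1.46 for Sema3f, and the widest intervals belong to Epha3, Efnb2 and Sema3c.

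Semaphorins showed the lowest and the highest fold changes among the members. Of 20, 8 lay below the ctrl range, beside 24.8% of all genes, 7 above, beside 26.3%, and 5 overlapped it. DESeq2 called 4 lower, beside 2.21% of all genes, and 1 higher, beside 2.92%. Sema5a, a transmembrane semaphorin of the oligodendrocyte lineage that inhibits axon growth (chr15:32244810-32696341 of mm10, plus strand), was at 9160 and 8969 normalized counts in ctrl and at 3599 and 3404 in Zfp276cko. The groups were far apart and the replicates close together. Sema5a thus stood at 38.6% of ctrl, with a log2 fold change of −1.37 (SE 0.10, edgeR's adjusted p = 0.0962, DESeq2's adjusted p = 8.12e-20), and from −1.41 to −1.33 with any library left out.

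Sema5b, the other class 5 member (chr16:35541145-35664732), was at 3884 and 2344 in ctrl and 1247 and 1110 in Zfp276cko. Its log2 fold change of −1.40 (SE 0.27, adjusted p = 0.167 with edgeR, 0.00019 with DESeq2) was close to that of Sema5a, although ctrl replicate 1 was 1.66-fold above ctrl replicate 2. Both Zfp276cko libraries stayed under the lower of the ctrl libraries. Sema3e, a secreted semaphorin that binds Plxnd1 without a neuropilin, was at 211 and 101 normalized counts in ctrl and 59.7 and 38.7 in Zfp276cko. The groups did not overlap, but the libraries of each genotype differed, by 2.09-fold in ctrl and 1.54-fold in Zfp276cko. Its log2 fold change of −1.67 (SE 0.48, adjusted p = 0.249 with edgeR, 0.0467 with DESeq2) was the lowest of any member and came to −1.04 without ctrl replicate 1.

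The class 6 semaphorins, transmembrane ligands of class A plexins, divided. Sema6a was at 5071 and 8930 normalized counts in ctrl and at 3735 and 3399 in Zfp276cko, and Sema6d at 2414 and 3775 against 1952 and 1997. In both genes ctrl replicate 2 was the highest library, and the Zfp276cko libraries lay below ctrl replicate 1. Sema6a had a log2 fold change of −0.97 (SE 0.30, adjusted p = 0.267 with edgeR, 0.0286 with DESeq2) and Sema6d one of −0.65 (SE 0.24, adjusted p = 0.318 and 0.160). They came to −0.52 and −0.30 when ctrl replicate 2 was left out. Sema6b overlapped the ctrl range (706 to 900 normalized counts over the 4 libraries), and Sema6c was at 222 and 396 in ctrl and 435 and 455 in Zfp276cko.

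Among class 4 semaphorins, which are membrane-bound ligands of B plexins and of receptors on immune cells, Sema4a was at 363 and 155 normalized counts in ctrl and 128 and 111 in Zfp276cko (log2 fold change −1.11, SE 0.46, edgeR's adjusted p = 0.361). Without ctrl replicate 1 the difference came to −0.38. Sema4b went the other way, with 185 and 406 in ctrl and 473 and 448 in Zfp276cko (0.64, SE 0.41), and this came to 0.18 without ctrl replicate 1. Sema4d and Sema4c, named here after their values were seen, had a smaller spread. Sema4d was at 5042 and 4653 in ctrl and 3413 and 3382 in Zfp276cko (−0.51, SE 0.10, adjusted p = 0.162 with edgeR, 0.0115 with DESeq2), under the fold threshold. Sema4c was at 1619 and 2059 in ctrl and 2729 and 2664 in Zfp276cko (0.55, SE 0.14, edgeR's adjusted p = 0.219).

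The class 3 semaphorins are secreted and repel axons. Sema3f, the ligand of Nrp2, was at 29.7 and 32.6 normalized counts in ctrl and 91.4 and 80.8 in Zfp276cko. Sema3a, the ligand of Nrp1, was at 33.2 and 33.8 in ctrl and 65.1 and 71.3 in Zfp276cko. Both were rare transcripts, at 0.906 TPM and 0.364 TPM in ctrl, with close replicates and no overlap between the genotypes. The log2 fold change of Sema3f was 1.46 (SE 0.27, adjusted p = 0.160 with edgeR, 0.0426 with DESeq2) and that of Sema3a 1.02 (SE 0.26, adjusted p = 0.215 and 0.306). Sema3b was at 65.3 and 25.9 in ctrl and 92.3 and 80.8 in Zfp276cko (0.92, SE 0.51), which came to 0.39 without ctrl replicate 2. Sema3d, the most abundant class 3 member, was at 9922 and 3271 in ctrl and at 4075 and 4308 in Zfp276cko. Its Zfp276cko libraries therefore lay between the ctrl libraries, and its log2 fold change of −0.65 (SE 0.55) turned to 0.36 without ctrl replicate 1.

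**Figure D3:**
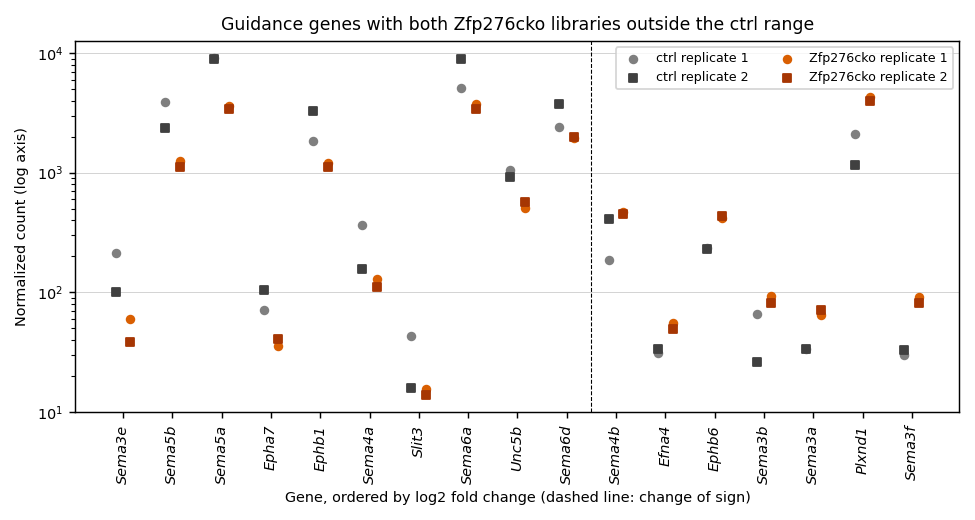
Normalized counts (vertical log axis) in each of the 4 libraries for the 17 guidance genes with a mean of 20 or more, both Zfp276cko libraries outside the ctrl range and a fold change of 0.6 or more in size on the log2 scale, ordered by fold change; grey marks ctrl, orange marks Zfp276cko. For Sema5a the grey points coincide at 8969 and 9160 while the orange points lie at 3404 and 3599, whereas the grey points of Sema3e, Sema4a, Slit3, Sema4b and Sema3b are more than 2-fold apart.

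Of the 11 plexins and neuropilins, the receptors for semaphorins, 8 overlapped the ctrl range. Below it lay 1, beside 24.8% of all genes, and above it 2, beside 26.3%. Nrp1 and Nrp2, the co-receptors for class 3 semaphorins, were at 354 to 635 and at 2859 to 4189 normalized counts over the 4 libraries, with log2 fold changes of 0.11 (SE 0.31) and 0.25 (SE 0.21). The A plexins had log2 fold changes between 0.02 and 0.17. Plxnb1 stood at −0.05 (SE 0.10), and its 95% interval of −0.31 to 0.20 left out the fold threshold on either side. Plxnb2, a receptor for class 4 semaphorins, was at 6036 and 6230 in ctrl and 7651 and 7171 in Zfp276cko (0.27, SE 0.10). Plxnb3 was at 15715 and 20522 in ctrl and 15018 and 12881 in Zfp276cko (−0.38, SE 0.19, edgeR's adjusted p = 0.422).

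Plxnd1, the receptor of Sema3e (chr6:115954811-115995005, minus strand), had the largest difference of the class, at 2104 and 1159 normalized counts in ctrl and 4258 and 3948 in Zfp276cko. The Zfp276cko libraries lay above the ctrl libraries, at 251% of ctrl on average, although the ctrl libraries differed 1.82-fold. Its log2 fold change was 1.33 (SE 0.31, adjusted p = 0.193 with edgeR, 0.00236 with DESeq2), and 0.95 to 1.82 with any library left out. The ligand and its receptor thus lay on opposite sides of ctrl. Plxnd1 is also expressed in endothelial and immune cells. Of the 12 fibroblast and vessel markers, Pecam1 alone lay above the ctrl range (106 and 93.4 in ctrl, 153 and 161 in Zfp276cko), Acta2 lay below it, Cdh5 and Flt1 overlapped it, and Cldn5 was at 0 in all libraries. Of the 12 microglial markers, 2 lay above the ctrl range, Ptprc (3018 and 3101 in ctrl, 5092 and 5264 in Zfp276cko) and Cx3cr1 (2290 and 2369 in ctrl, 3095 and 2966 in Zfp276cko), 0 lay below it, and the sum overlapped. The part of these cells in the level of Plxnd1 was not tested.

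Promoter windows from RefSeq (GRCm38.p6) were searched on both strands for AAAGGG and for ACAAAG, a core bound by Sox proteins such as Sox10. AAAGGG is the stretch of the Zfp276 consensus with a single letter at each position, and the last of these letters can differ in sequences that Zfp276 binds. The 250 bases before each annotated start were used, for 60 of the 70 members. AAAGGG occurred in 14.5% of member windows and in 19% of all windows, and ACAAAG in 9.21% and 16.5%. Of the 10 named members lower in Zfp276cko, 9 had a window, 0 of these held AAAGGG, and 1 (Sema6d) held ACAAAG. Of the 7 named members higher in Zfp276cko, 5 had a window, and AAAGGG was found in Plxnd1 and Efna4, ACAAAG in Efna4 and Sema3a. The 2 motifs share the letters AAAG and overlap in both sites of Efna4. The stretches around the AAAGGG matches are shown because Plxnd1 and Efna4 were the members higher in Zfp276cko that held this core. The full consensus of the study also asks for A or G before this core, and for T or C and then T or G after it. The match in Plxnd1 meets this, whereas both matches in Efna4 have a C before the core and do not. The sites bound in the study lay in evolutionary conserved regions outside promoter windows of this kind. Capitals mark the motifs, the bases are given 5′ to 3′ on the strand of the gene, and neither stretch overlaps an annotated exon. The match in Plxnd1 lies 46 bases before the start, and those in Efna4 lie 174 and 127 bases before it.
Plxnd1, chr6:115995022-115995075, minus strand: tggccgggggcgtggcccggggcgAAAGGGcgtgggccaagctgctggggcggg
Efna4, chr3:89338126-89338228, minus strand: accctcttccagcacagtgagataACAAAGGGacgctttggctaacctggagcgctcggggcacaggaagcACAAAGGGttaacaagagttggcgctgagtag
A match is a run of letters and does not show that a protein binds there.

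Of the ephrins, the membrane-anchored ligands of Eph receptors, no member was called by either tool. Efna4, the gene whose promoter is shown above, was at 30.9 and 33.8 normalized counts in ctrl and 55.2 and 49.0 in Zfp276cko. The groups did not overlap and the log2 fold change was 0.69 (SE 0.28, adjusted p = 0.351 with edgeR, 0.691 with DESeq2). Its exons overlap those of 4731419I09Rik on the opposite strand over 168 nt, and whether counting used strand is not given in the sources used here. Efnb3, a transmembrane ephrin of myelin that inhibits axon growth, was at 818 and 878 in ctrl and 677 and 664 in Zfp276cko (−0.34, SE 0.11, edgeR's adjusted p = 0.284). Efnb2 spanned the widest range of the class, at 163 and 1584 in ctrl and 590 and 665 in Zfp276cko. Its log2 fold change of −0.48 (SE 1.03) came to 1.93 without ctrl replicate 2.

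Of the 10 Eph receptors with a mean of at least 20, 4 lay below the ctrl range, beside 24.8% of all genes, 3 above, beside 26.3%, and 3 across it. Ephb1, a kinase-active receptor of B-type ephrins, was at 1824 and 3272 normalized counts in ctrl and 1212 and 1113 in Zfp276cko. Both Zfp276cko libraries were below the lower ctrl library, and the log2 fold change was −1.13 (SE 0.31, adjusted p = 0.229 with edgeR, 0.0106 with DESeq2), or −0.66 without ctrl replicate 2. Epha7, a receptor of A-type ephrins, was at 71.2 and 104 in ctrl and 35.3 and 40.4 in Zfp276cko (−1.21, SE 0.32, adjusted p = 0.221 and 0.148).

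Ephb6, a family member without kinase activity, was higher in Zfp276cko. It was at 236 and 231 normalized counts in ctrl and 422 and 436 in Zfp276cko, with replicates that nearly coincided in either genotype. The log2 fold change was 0.88 (SE 0.15, adjusted p = 0.139 with edgeR, 0.00506 with DESeq2), and from 0.85 to 0.90 with any library left out. Ephb2 differed by little, at 1695 and 1692 in ctrl and 1650 and 1571 in Zfp276cko (−0.07, 95% interval −0.30 to 0.16). Ephb1 and Ephb6 thus differed in direction although both are B-type receptors. Epha3 and Epha4 could not be placed, since their ctrl libraries were at 7.12 and 160 and at 355 and 1520.

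Among netrins and their receptors, Unc5b, a repulsive netrin receptor (chr10:60762593-60831581), was at 1052 and 911 normalized counts in ctrl and 507 and 564 in Zfp276cko. All replicates were close and the groups did not overlap. Unc5b thus stood at 54.6% of ctrl, with a log2 fold change of −0.87 (SE 0.14, adjusted p = 0.134 with edgeR, 0.000938 with DESeq2). Unc5c, the more abundant relative, was at 3797 and 3266 in ctrl and 3799 and 3820 in Zfp276cko (0.11, 95% interval −0.20 to 0.42), and its sign turned without ctrl replicate 2. Ntn1, the secreted ligand of both, was at 1951 and 2024 in ctrl and 1978 and 1790 in Zfp276cko (−0.08, 95% interval −0.34 to 0.18). For Ntn1 and Unc5c these intervals exclude a difference as large as the fold threshold. Dcc, the attractive netrin receptor, was at 437 to 629 over the 4 libraries, and Ntn4 was at 139 and 124 in ctrl and 193 and 191 in Zfp276cko.

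Slits and Robos were the rarest class, and no member had an unadjusted p of at most 0.05. Slit1 was at 327 and 338 normalized counts in ctrl and 349 and 416 in Zfp276cko (0.20, SE 0.16). Slit2 overlapped the ctrl range. Slit3, a secreted repellent, was at 42.7 and 15.8 in ctrl and 15.4 and 13.7 in Zfp276cko. Its log2 fold change of −0.996 (SE 0.58, edgeR's adjusted p = 0.484) rested on ctrl replicate 1 and came to −0.11 without it. Robo2, a Slit receptor, was at 215 and 1043 in ctrl and 800 and 894 in Zfp276cko, and its log2 fold change of 0.43 (SE 0.75) turned to −0.30 without ctrl replicate 1.

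The gap between the ctrl libraries was wider for guidance genes than for genes at large. The median fold between the ctrl libraries was 1.46 over the members and 1.22 over all genes, and between the Zfp276cko libraries 1.09 and 1.06. In 18 of 61 members (29.5%) the ctrl libraries were at least 2-fold apart, beside 12.9% of all genes, and in 0 of 61 the Zfp276cko libraries were, beside 0.39%. Of the 18, 11 were higher in ctrl replicate 2: Epha3 (22.4-fold), Efnb2 (9.74-fold), Sema3c (8.64-fold), Robo2 (4.85-fold), Epha4 (4.28-fold), Unc5d (3.88-fold), Robo1 (3.31-fold), Plxna2, Efnb1, Epha5 and Sema4b. The other 7 were higher in ctrl replicate 1, and these were Sema3g (5.12-fold), Sema3d (3.03-fold), Slit3, Ntng2, Sema3b, Sema4a and Sema3e.

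The summed markers of other cell types also differed between the ctrl libraries, although single genes of each list differed in size or direction. The summed level of 11 neuronal genes was 3498 in ctrl replicate 1 and 12628 in ctrl replicate 2, with 10854 and 11544 in the Zfp276cko libraries. Gad1, a marker of inhibitory neurons, was at 78.4 in ctrl replicate 1 and 2002 in ctrl replicate 2, beside 920 and 1003 in Zfp276cko, the same order of libraries as for Efnb2 and Epha3. The sum of 12 fibroblast and vessel genes was 9188 in ctrl replicate 1 and 509 to 608 in the other libraries, with Col1a1 at 2522 against 49.0 to 74.2. Between ctrl replicates 1 and 2, Nefl (41.6 and 43.9) and Pecam1 (106 and 93.4) differed little. Slc17a7 (5.94 and 2.25) went against the neuronal sum. Astrocyte and microglial sums were higher in ctrl replicate 1 (31963 against 21410, and 52889 against 27996). Of their genes, Aqp4, Aldh1l1, Gja1, Sox9, Aif1, Cx3cr1 and Ptprc were higher in ctrl replicate 2. Of the 7 members higher in ctrl replicate 1, all but Sema3b also had their highest value of all 4 libraries there. The part of these cells in the levels of guidance genes was not tested. Sema5a, Ephb6, Sema3f, Sema3a and Unc5b differed by 1.15-fold or less between the ctrl libraries, as did others such as Ephb2 and Sema4d. Such a small gap does not show whether cell types had a part in their difference between the genotypes, which was not tested.

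**Figure D4:**
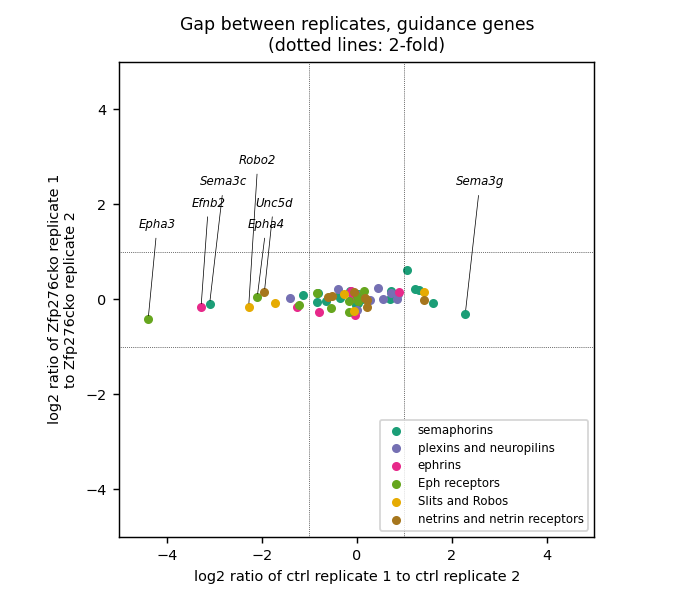
Each point is 1 of 61 guidance genes, with the log2 ratio of ctrl replicate 1 to ctrl replicate 2 on the horizontal axis and the log2 ratio of the Zfp276cko replicates on the vertical axis, on equal scales. The points spread horizontally, with 18 genes beyond the dotted 2-fold lines in ctrl and 0 beyond them in Zfp276cko.

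**Figure D5:**
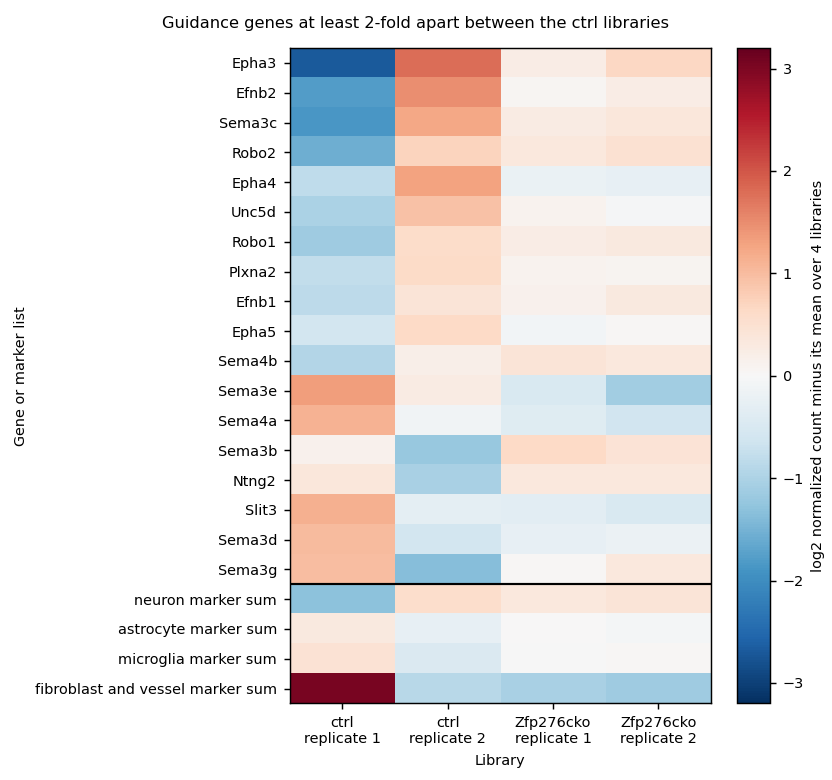
Colour scale of log2 normalized counts relative to the mean of each row over the 4 libraries (columns), for the 18 guidance genes with ctrl libraries at least 2-fold apart and, under the black line, for the summed markers of 4 other cell types. The upper 11 genes and the neuronal sum are lowest in ctrl replicate 1, and the fibroblast and vessel sum is highest there (9188 against 509 to 608 normalized counts).

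Genes that act beside or downstream of these receptors were taken as a further list of 61, including co-receptors and cytoskeletal effectors, and all were tested. By edgeR's quasi-likelihood test 0 passed. An unadjusted p of 0.05 or less was found for 14 genes, of which 4 lower genes, beside 3.02% of all tested genes, and 2 higher genes, beside 5.11%, met the thresholds on fold change and mean. DESeq2 called 3 of the 61 lower, beside 2.21% of all genes, and 1 higher, beside 2.92%. By position 22 of 61 lay below the ctrl range, beside 24.8% of all genes, and 11 above, beside 26.3%. The median log2 fold change was −0.15, beside −0.0013 for all tested genes. Dscam, a netrin receptor, was at 5263 and 5202 normalized counts in ctrl and 3376 and 3138 in Zfp276cko (−0.68, SE 0.10, adjusted p = 0.123 with edgeR). Fyn, a kinase downstream of netrin and plexin receptors that acts in myelination, was at 39456 and 39172 in ctrl and 23193 and 23379 in Zfp276cko (−0.76, SE 0.12, adjusted p = 0.134). Chn2, a Rac-inactivating protein, was at 9004 and 11915 in ctrl and 5249 and 5313 in Zfp276cko (−0.99, SE 0.17, adjusted p = 0.148). Draxin, a secreted ligand of Dcc, was the gene called higher, at 395 and 295 in ctrl and 619 and 616 in Zfp276cko (0.84, SE 0.19, adjusted p = 0.189). Met, a partner of B plexins, was at 209 and 47.3 in ctrl and 433 and 456 in Zfp276cko (1.80, SE 0.72, adjusted p = 0.350), with ctrl libraries 4-fold or more apart. Neo1, the Dcc relative, was at 11521 and 11022 in ctrl and 8606 and 8292 in Zfp276cko (−0.42, SE 0.10, adjusted p = 0.206), under the fold threshold. Dscam, Fyn and Chn2 were the genes called lower by DESeq2, with its adjusted p at 0.00011, 3.1e-07 and 7.2e-05. DESeq2's adjusted p was 0.0313 for Draxin, 0.0948 for Met and 0.0364 for Neo1. The study, from the same libraries, names Fyn among its strongly downregulated genes. Neo1 and Met were chosen after their values were seen.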

How the data were processed

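RNA-Seq was performed on 4 libraries of cultured 1° mouse OGCs (TruSeq stranded mRNA, single-end reads). Per the study's methods and the submitters' processing notes, the authors used STAR 2.5.4a for mapping to mm10 and deposited counts, as whole numbers for each gene symbol, neither normalized nor filtered. The counting tool is given as HTSeq in the methods and as featureCounts 1.5.1 in the processing notes, and the strand setting is not given in the sources used here. These counts were analysed with R 4.3.3, edgeR 4.0.16, limma 3.58.1 and DESeq2 1.42.0.

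Genes were filtered by filterByExpr (default settings; 15766 genes and 99.9% of the counts kept), normalized with TMM (factors of 0.935 to 1.04) and tested for genotype alone by the quasi-likelihood test of edgeR, with p adjusted over all of them (Benjamini-Hochberg). Calls followed the thresholds of the study: adjusted p up to 0.05, log2 fold change of 0.6 or more in size, and 20 or more normalized counts on average. The study used DESeq2 with them, whereas edgeR's test was the main test here. At these thresholds DESeq2 called 338 genes lower and 447 higher in these counts. Standard errors and 95% intervals came from the test's F statistic. Replicates are separate preparations and differed by more than sampling noise, with a chi-square per gene of 84.5 in ctrl and 5.63 in Zfp276cko. With 2 libraries per genotype an exact permutation test cannot give a p below 0.333, so none was used for single genes. Levels in TPM used the union of exons in GENCODE M21 and serve to compare genes. Promoter sequences and their coordinates came from RefSeq (GRCm38.p6). Of the members, 14 overlap exons on the opposite strand and 4 exons on the same strand, and their counts may include reads of the other gene.

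Members named with full values were those past the thresholds on mean and fold change with both Zfp276cko libraries outside the ctrl range, those called by DESeq2, and the 2 members of each class with the highest TPM in ctrl. The member families and the lists were chosen with earlier results of these data known, although the rule for members uses symbols alone. Alternatives were DESeq2, its size factors, other filters, an unadjusted p, a replicate block, the raw library total as scale, another gene length, and leaving out each library.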

Additional observations from a re-analysis of the deposited data

How the results depend on the processing

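With 2 libraries per genotype the spread of ctrl decided the calls. The number of called members was 0 with the size factors of DESeq2, at least 10 counts in every library, no filter, a replicate block, the legacy setting of the test off (added after seeing the data) or either Zfp276cko library left out, 9 with DESeq2, 12 with an unadjusted p, and 0 to 25 over the libraries left out. With a ctrl library left out, 24 to 31 of 61 members lay below the ctrl range, beside 43.1% to 43.5% of all genes. Above it lay 27 to 30, beside 44% to 45.7%. This comparison was added after seeing the data, and in it 1 library sets the range.

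Leaving out each library in turn moved the median log2 fold change of semaphorins from −0.33 to 0.024, of plexins and neuropilins from −0.049 to 0.25, of ephrins from −0.29 to 0.13, of Eph receptors from −0.68 to 0.22, of Slits and Robos from −0.28 to 0.33, and of netrins and their receptors from 0.12 to 0.41. The semaphorin median was −0.24 with at least 10 counts in every library and −0.15 without a filter. With the replicate block it was −0.070, and the ephrin median 0.18. Over genes, the difference between the ctrl replicates had a correlation of 0.0067 with that between the Zfp276cko replicates. This value cannot decide whether replicate numbers pair the libraries, since the Zfp276cko libraries were so close. With the block 0 members were called, as in the main fit. Zfp276 passed the threshold with DESeq2 (−1.98) and without a ctrl library (−2.17 to −1.75 over the libraries left out). The log2 fold change changed sign for Unc5c (−0.0089 to 0.22 over the libraries left out), Sema3d (−1.26 to 0.36), Robo2 (−0.30 to 1.96) and Efnb2 (−1.33 to 1.93, and 0.25 with the replicate block). In these fits fewer libraries were used, and the cause of the gap between the ctrl libraries was not tested. Members with a mean under 20 normalized counts could not be called, whatever their difference, and 5 of them were not tested.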
